A study of Arabidopsis thaliana with 6 samples.

Results

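The TBR and TBL genes of leaf trichomes, together with the galacturonosyltransferase gene GAUT15, were followed in gtl1-1 mutant and wild-type Arabidopsis. A gene was taken when its symbol was TBR, or TBL or GAUT with a number, or when its names in the reference gene table held "trichome birefringence", "galacturonosyltransferase" or "xylosyltransferase". The term "exostosin" was also searched and matched 0 names there, and full gene descriptions were not used here. Of 81 reference genes found in this way, 25 had a probe set that the annotation used here assigned to no other gene. In all, 13356 genes had such a probe set. This annotation left 8730 of 22746 probe sets unnamed, so a gene without a named probe set may still be on the array. They were 24 of 46 TBR and TBL genes, 1 of 26 galacturonosyltransferase genes (GAUT15) and 0 of 9 xylosyltransferase genes. The set is therefore in effect the TBR and TBL family, with GAUT15 as its 1 gene for the synthesis of wall polysaccharides in the Golgi. Genes that only a description would identify, such as exostosin genes, are missing from the set and from its counts. IRX10, which had been listed for description as a member, was not found by these names and is read below from a pathway list. Some other genes of that synthesis were read from separate fixed lists.

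RNA came from leaf trichomes, hairs that each grow from a single epidermal cell, of gtl1-1 mutant plants (3 biological replicates) and wild-type plants (3 biological replicates). GTL1 is a trihelix transcription factor that limits trichome growth. All plants were 3 weeks old and had grown on plates with sucrose in continuous light, and the trichomes had been pulled from rosette leaves with forceps. Each replicate was hybridised to 1 Affymetrix array, and the question was which transcripts change in trichomes when GTL1 is mutated. The labels do not describe the nature of the allele, and the mutated gene had no probe set named for it here, so the genotypes rest on the labels.

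Plant walls hold cellulose, pectin and the hemicelluloses xylan, mannan and xyloglucan, and all but cellulose are built in the Golgi. Many of their sugars carry acetyl groups, which some TBL proteins are known to transfer onto the chains, different groups of them acting on different polysaccharides. TBR, which gave the family its name, is needed for the crystalline cellulose that makes mature trichomes birefringent. GAUT proteins add galacturonic acid, the main sugar of pectin.

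The arrays gave log2 expression values from 2.14 to 15.51, with array medians between 5.48 and 5.57, and arrays have no sequencing depth. A probe set was tested when at least 3 of the 6 arrays put it over their own 40th percentile (3.51 to 3.60), which held for 13682 of 22746. Of 18 trichome regulators fixed as markers, the 3 with a probe set named for them here, SIM, TRY and GIS, all passed this filter. Their changes, mutant minus wild type, were 0.12 ± 0.23, -0.99 ± 0.50 and 0.84 ± 0.20 (log2 ± SE, n = 3 per genotype), and of these 3 only GIS did not overlap between genotypes. The stomatal lineage marker SPCH stood at -0.55 ± 0.27, lower on all mutant arrays, FMA at 0.21 ± 0.33 and the phloem marker SWEET11 at 0.54 ± 0.36, while MUTE lay below the filter. Limma called none of the tested markers. Of 12 photosynthesis genes fixed as markers of mesophyll, 5 had a probe set named for them here. LHCB4.2 and LHCB4.1, which encode light-harvesting proteins, had differences of -0.99 ± 0.26 and -0.39 ± 0.15 (log2, mutant minus wild type, ± SE, n = 3 per genotype). Both were lower in the mutant without overlap between genotypes, which held for 10.1% of all tested probe sets. The 3 Calvin cycle genes had differences of 0.01 to 0.05 and overlapped. The mean level of these 5 genes was 12.06, 12.16 and 11.89 on the mutant arrays, against 12.29, 12.65 and 11.94 on the wild-type arrays. All 5 passed the filter, and the part of RNA from other leaf cells in the results was not tested. In bulk RNA, fewer cells of a type and less RNA per cell cannot be told apart.

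Of the 25 genes, 15 passed the filter and 10 did not. The genes tested were TBR, TBL16, TBL18, TBL19, TBL23, TBL25, TBL28, TBL32, TBL36, TBL37, TBL38, TBL39, TBL41, TBL45 and GAUT15. Those not tested were TBL15, TBL20, TBL21, TBL26, TBL30, TBL34, TBL35, TBL40, TBL42 and TBL43. In 6 of these 10 every array read less than 0.5 log2 units over the lowest value in the table, and TBL20 and TBL42 had one identical value on all 6 arrays. The method that made the values presses dim probe sets onto this floor, so these are upper bounds on the level rather than measurements. TBL36 passed by only 0.02 log2 units and TBL37 by 1.56, while TBL30 missed by 0.01 and TBL35 by 0.09. TBL40 had 2 probe sets, and neither passed.

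**Figure D1:**
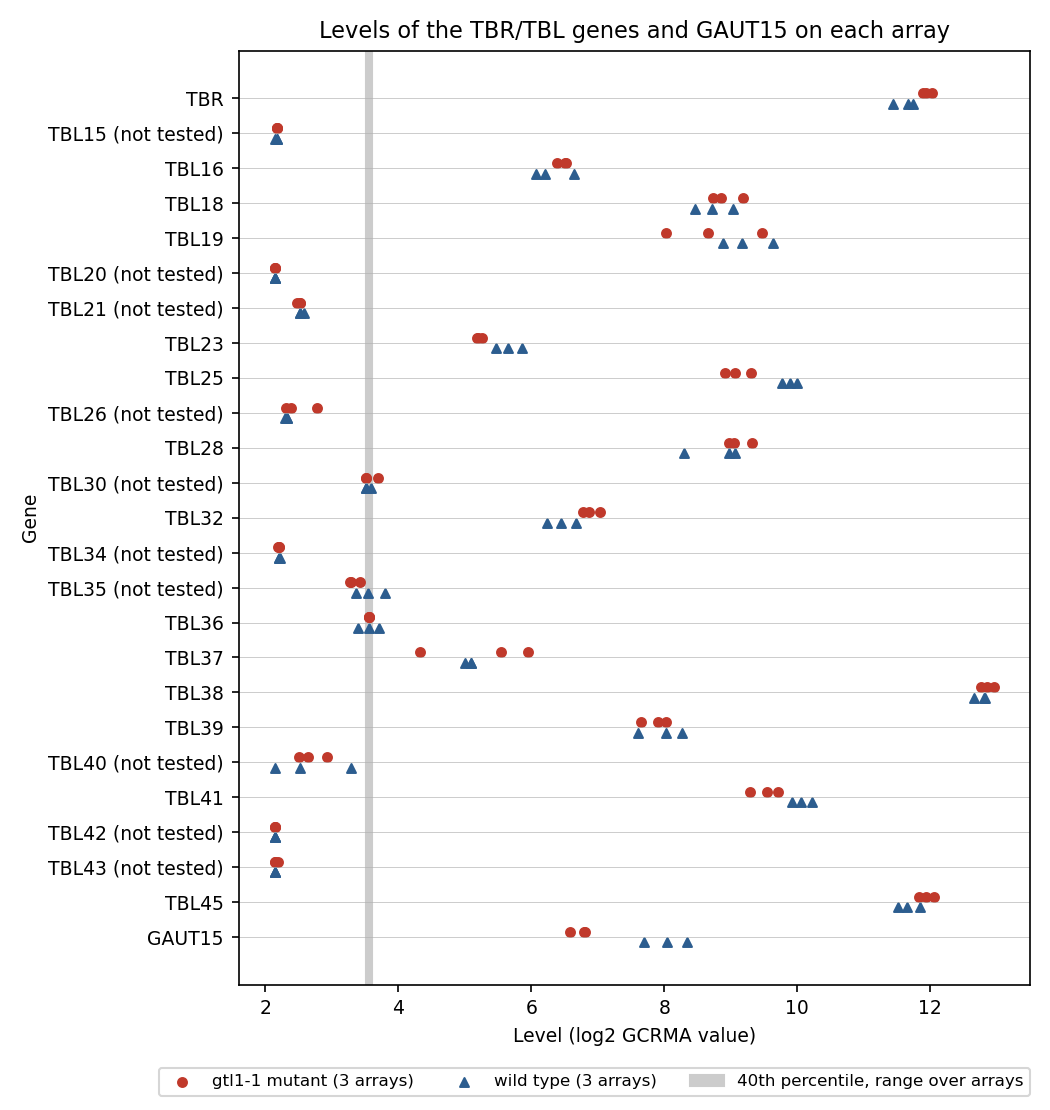
Log2 level of each of the 25 genes (x axis) on the 3 gtl1-1 mutant arrays (red circles) and the 3 wild-type arrays (blue triangles), 1 gene per row, in order of gene number. The grey band is the 40th percentile of the arrays, 3.51 to 3.60, and the 10 genes that fewer than 3 arrays put over their own percentile are marked as not tested. Probe sets bind with different strength, so positions of different genes are not comparable.

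Across the 15 tested genes, 1 was called in gtl1-1 trichomes at a Benjamini-Hochberg adjusted p under 0.05 in limma, where 0.921% of all tested probe sets were called. That gene was GAUT15, which was called lower in the mutant, as 0.329% of all tested probe sets were. None of the 15 was called higher, against 0.592% of all tested probe sets. An unadjusted p under 0.05 was reached by 6 of the 15, where 14.9% of all tested probe sets reached it. GAUT15, TBL25, TBL41 and TBL23 were lower and TBL32 and TBR higher, against 7.15% lower and 7.8% higher among all tested probe sets. In these 6 genes the genotypes did not overlap over their 3 arrays each, which held for 20.9% of all tested probe sets (10.1% lower and 10.8% higher in the mutant). The median change of the 15 was 0.09, against -0.01 over all tested probe sets, and 7 changes lay below 0 and 8 above, where 51.2% and 48.8% of all tested probe sets did. Their median absolute change was 0.34, against 0.19 over all tested probe sets.

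**Figure D2:**
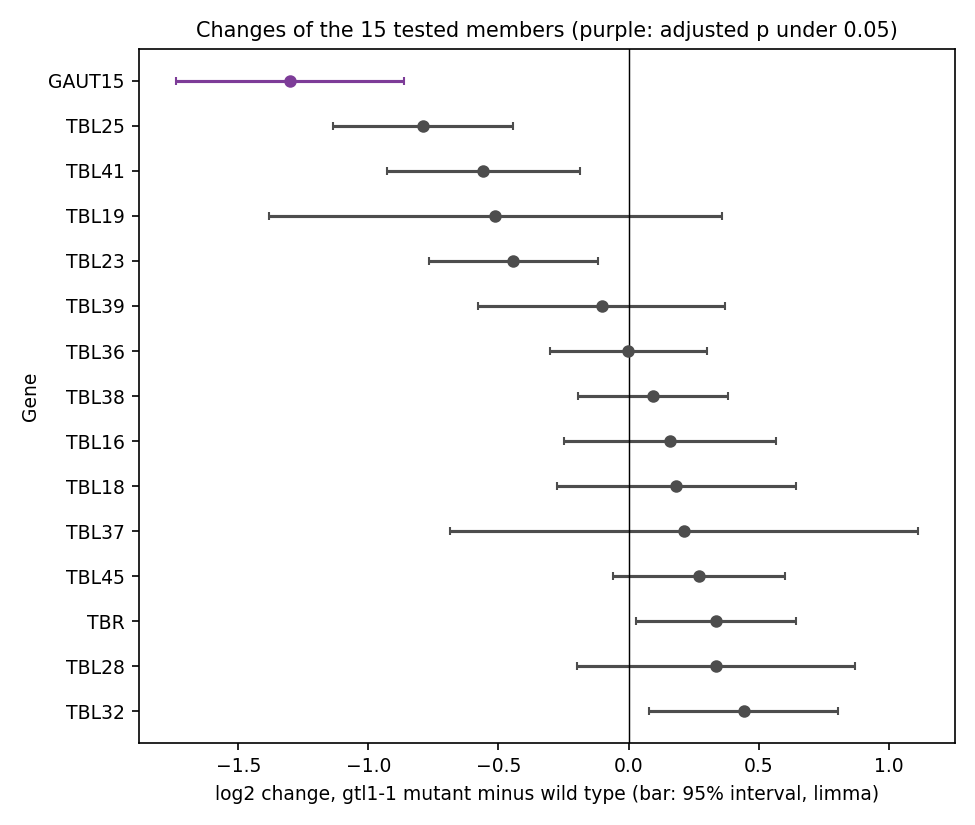
Log2 change, gtl1-1 mutant minus wild type (x axis), of the 15 tested genes, with the 95% interval of the limma fit as bars. GAUT15, in purple, is the gene with an adjusted p under 0.05, and the intervals of 9 of the 15 genes hold 0.

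GAUT15 (AT3G58790) belongs to the family of pectin galacturonosyltransferases, and its own enzymatic activity was not measured in this study. It had log2 levels of 6.79, 6.80 and 6.58 in gtl1-1 mutant trichomes, against 8.34, 8.04 and 7.69 in wild-type trichomes. Every mutant array lay below every wild-type array, with means of 6.72 ± 0.12 in the mutant and 8.02 ± 0.33 in wild type (SD, n = 3 each). The change was -1.30 ± 0.19 (log2 ± SE), or 2.46-fold lower in the mutant, with a limma adjusted p of 0.0331. Its p ranked 78 among the 13682 tested probe sets. Taking arrays of the same replicate number together, the differences were -1.55, -1.24 and -1.11 log2 units in pairs 1, 2 and 3, and a fit blocked on these pairs kept the call (limma adjusted p = 0.047). The call depends on the number of arrays and on the filter. With 1 array left out the change ran from -1.47 to -1.14, but the gene was called in 1 of those 6 fits, the one without wild type replicate 3 (limma adjusted p = 0.0271). The limma adjusted p was 0.0827, 0.11 and 0.157 without gtl1-1 mutant replicate 1, 2 and 3. It was 0.0942 and 0.138 without wild type replicate 1 and 2. When dim probe sets were kept in the fit it was 0.211.

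**Figure D3:**
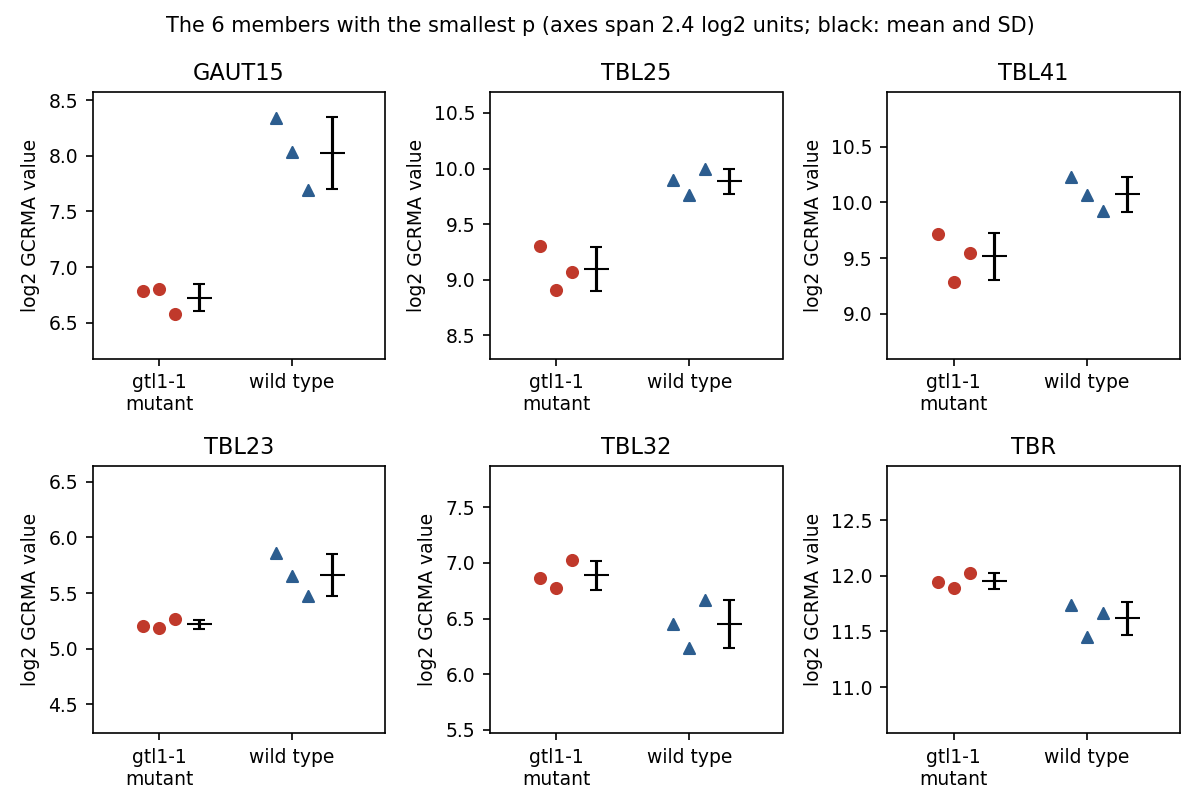
Log2 levels of the 6 genes with the smallest p, in gtl1-1 mutant trichomes (left, red circles) and wild-type trichomes (right, blue triangles), 3 arrays each, with the mean and SD in black. Each y axis spans the same width. GAUT15, TBL25, TBL41 and TBL23 are lower and TBL32 and TBR higher on all 3 mutant arrays, and GAUT15 has the widest gap, with means of 6.72 and 8.02.

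TBR (AT5G06700) was among the genes with positive changes. It had log2 levels of 11.95, 11.89 and 12.03 in gtl1-1 mutant trichomes, against 11.74, 11.45 and 11.67 in wild-type trichomes. The mutant arrays lay above the wild-type arrays without overlap, the closest arrays being mutant replicate 2 and wild type replicate 1. The change of 0.34 ± 0.13 (log2 ± SE), or 1.26-fold, did not pass over all probe sets (limma adjusted p = 0.294), and its 95% interval ran from 0.03 to 0.64.

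The TBL proteins known to acetylate mannan are TBL23, TBL24, TBL25 and TBL26, of which TBL23 and TBL25 were tested. TBL25 (AT1G01430) had log2 levels of 9.30, 8.91 and 9.07 in gtl1-1 mutant trichomes, against 9.89, 9.77 and 9.99 in wild-type trichomes. All mutant values were below all wild-type values. The change was -0.79 ± 0.15 (log2 ± SE), a 1.73-fold lower mean in the mutant, with a limma adjusted p of 0.0756 that lies just outside the threshold. With arrays weighted by their quality TBL25 was called (limma adjusted p = 0.0439), and over all alternatives its adjusted p ran from 0.0439 to 0.24. TBL23 (AT4G11090) had log2 levels of 5.21, 5.19 and 5.26 in gtl1-1 mutant trichomes, against 5.86, 5.65 and 5.48 in wild-type trichomes. The mutant values were again all below those of wild type, and they lay closer together (SD 0.04 in the mutant and 0.19 in wild type). Its change of -0.44 ± 0.14 (log2 ± SE) had a limma adjusted p of 0.216. TBL26 (AT4G01080) lay below the filter, at 2.32 to 2.78 in the mutant and 2.29 to 2.32 in wild type, and TBL24 was not analysed here.

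The TBL proteins known to acetylate xylan were represented by 5 genes, of which TBL28 and TBL32 were tested. TBL32 (AT3G11030) had log2 levels of 6.87, 6.77 and 7.03 in gtl1-1 mutant trichomes, against 6.45, 6.23 and 6.67 in wild-type trichomes. The genotypes did not overlap, and the change of 0.44 ± 0.15 (log2 ± SE), or 1.36-fold, had a limma adjusted p of 0.256. The name of the TBL32 probe set ends in _s_at, which marks probes shared by similar transcripts, so its value may hold signal of another gene. TBL28 (AT2G40150) had log2 levels of 9.32, 9.05 and 8.97 in gtl1-1 mutant trichomes, against 9.06, 8.97 and 8.29 in wild-type trichomes. These values overlapped, and wild type replicate 3 lay well below the other two wild-type arrays. The change of TBL28 was 0.34 ± 0.23 (limma adjusted p = 0.525), and it was 0.09 without wild type replicate 3. TBL30, TBL34 and TBL35 were not tested: TBL30 and TBL35 lay near the 40th percentile, between 3.27 and 3.80 on all arrays, and TBL34 at the floor, between 2.20 and 2.21. The changes of the tested mannan genes were thus below 0 and those of the tested xylan genes above 0. That difference rests on 2 genes on each side and was not tested.

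**Figure D4:**
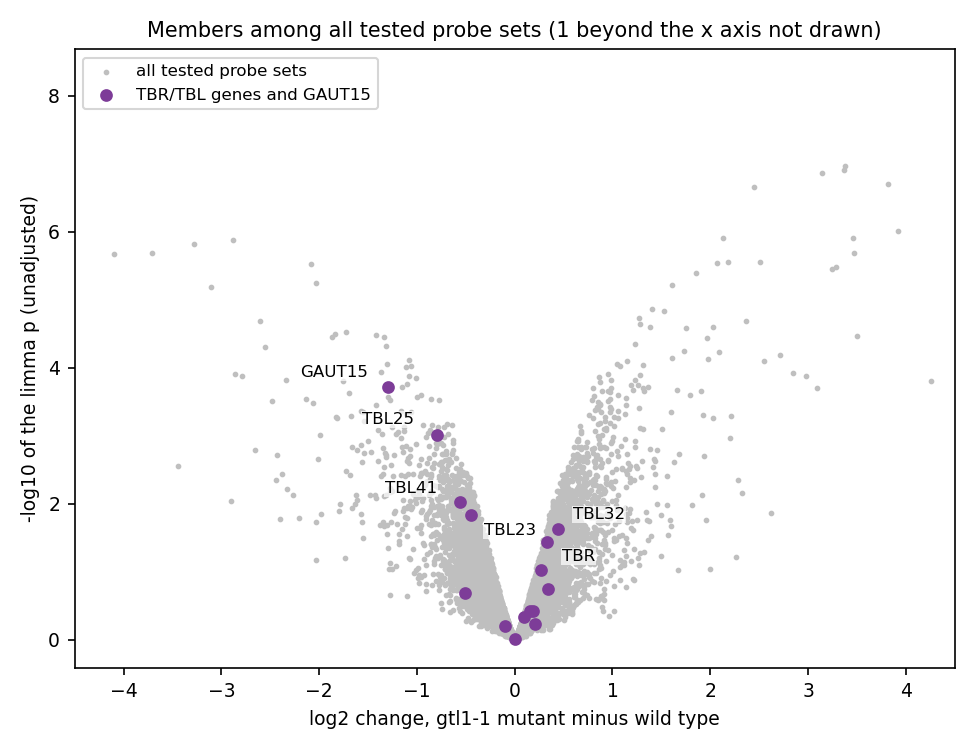
Unadjusted limma p as -log10 (y axis) against log2 change, gtl1-1 mutant minus wild type (x axis), for all 13682 tested probe sets (grey, with 1 beyond the axis left out) and the 15 tested genes (purple). The 6 labelled genes have an unadjusted p under 0.05, and grey points lie around all of them, GAUT15 at -1.30 included.

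For the other tested TBL genes no substrate is given here. TBL41 (AT3G14850) had log2 levels of 9.71, 9.29 and 9.55 in gtl1-1 mutant trichomes, against 10.23, 10.06 and 9.92 in wild-type trichomes. Its values did not overlap between genotypes, and its change of -0.56 ± 0.16 (log2 ± SE), 1.47-fold lower in the mutant, had a limma adjusted p of 0.189. TBL38 (AT1G29050) had log2 levels of 12.77, 12.96 and 12.85 in gtl1-1 mutant trichomes, against 12.81, 12.66 and 12.82 in wild-type trichomes. The TBL38 values overlapped, and the 95% interval of its change, from -0.19 to 0.38, stayed within 0.5 log2 units of 0. TBL45 (AT2G30010) had log2 levels of 12.05, 11.83 and 11.94 in gtl1-1 mutant trichomes, against 11.51, 11.65 and 11.85 in wild-type trichomes. It overlapped between genotypes through 1 array of each, and its change was 0.27 ± 0.14 (limma adjusted p = 0.426).

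Among the tested genes, TBL19 and TBL37 varied most between replicates of the mutant. TBL19 (AT5G15900) had log2 levels of 9.47, 8.67 and 8.02 in gtl1-1 mutant trichomes, against 9.63, 8.89 and 9.17 in wild-type trichomes. Its mutant arrays spanned more than 1 log2 unit, and the change of -0.51 ± 0.37 (limma adjusted p = 0.555) was -0.16 without gtl1-1 mutant replicate 3. TBL37 (AT2G34070) had log2 levels of 4.33, 5.95 and 5.54 in gtl1-1 mutant trichomes, against 5.09, 4.997 and 5.10 in wild-type trichomes. The SD of TBL37 was 0.85 in the mutant and 0.06 in wild type, its low mutant array being replicate 1. Its change of 0.21 ± 0.38 was 0.68 without that array and -0.13 without gtl1-1 mutant replicate 2. TBL16, TBL18, TBL36 and TBL39 had changes of 0.16 ± 0.17, 0.18 ± 0.20, -0.00135 ± 0.13 and -0.10 ± 0.20, with overlapping genotypes, and TBL39 turned to 0.05 without wild type replicate 1. TBL36 had one identical value, 3.55, on all mutant arrays and on wild type replicate 1, so its change may not be a measured difference. With 1 array left out, the change of TBL16 ran from 0.0422 (without wild type replicate 3) to 0.33 (without wild type replicate 1), and that of TBL18 from 0.0436 (without wild type replicate 2) to 0.332 (without wild type replicate 1). The SD of the 15 genes had a median of 0.13 in the mutant and 0.19 in wild type, where all tested probe sets had 0.19 in both.

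Some of these genes lie next to each other in the gene order of the reference assembly. TBL28 and TBL30 are neighbours on chromosome 2, and TBL21 and TBL19 on chromosome 5. In each pair 1 gene passed the filter (TBL28, TBL19) and its neighbour did not (TBL30, TBL21). The 25 genes lie on all 5 chromosomes, 9 of them on chromosome 2.

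Other genes of the pathways were read from fixed lists, most of whose members had no probe set named for them here. Of 19 genes for the synthesis of xyloglucan and mannan, 5 had a probe set and 4 were tested. None of the 4 was called in limma over all probe sets, where 0.921% of all tested probe sets were. An unadjusted p under 0.05 with a positive change was found for 3 of the 4, where 7.8% of all tested probe sets had one, and the median change was 0.55, against -0.01 over all tested probe sets. CSLC4, a synthase of the glucan backbone of xyloglucan, had log2 levels of 10.54, 10.47 and 10.33 in gtl1-1 mutant trichomes, against 10.20, 9.58 and 9.76 in wild-type trichomes. Its values did not overlap, with a change of 0.60 ± 0.18 (limma adjusted p = 0.21). CSLC5, of the same family, had a change of 0.54 ± 0.20 (limma adjusted p = 0.27). CSLA3, of the mannan synthase family, had log2 levels of 9.69, 10.05 and 9.74 in gtl1-1 mutant trichomes, against 9.27, 9.56 and 8.99 in wild-type trichomes. Its change of 0.55 ± 0.19 (limma adjusted p = 0.243) had the opposite sign to those of the mannan acetyltransferase genes TBL25 and TBL23. CSLC6 had a change of 0.48 ± 0.22 and overlapped between genotypes. Of 18 genes for xylan synthesis, IRX10 alone was tested. IRX10, an enzyme that extends the xylan backbone, stood at 4.52 ± 0.21 in the mutant and 4.90 ± 0.25 in wild type (SD, n = 3 each), a change of -0.37 ± 0.18 (limma adjusted p = 0.381). The lists for pectin synthesis and methylation, acetyl donors, nucleotide sugars and cellulose synthesis had 0 genes with a probe set named for them in the annotation used here. They were therefore not analysed, and this does not show that the array lacks these genes.

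**Figure D5:**
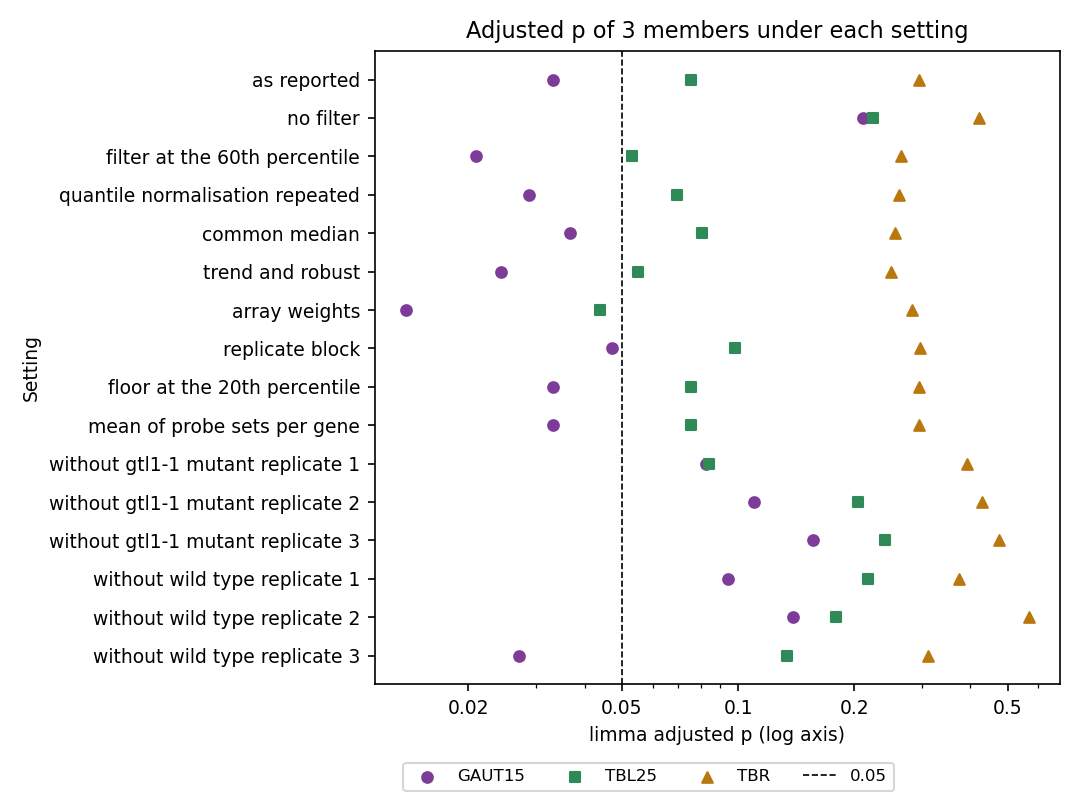
Limma adjusted p (x axis, log scale) of GAUT15, TBL25 and TBR under each setting (y axis), with the threshold of 0.05 as a dashed line. GAUT15 lies below the line as reported (0.0331) and under 9 of 15 alternatives, TBL25 under the array weights alone, and TBR under none. Among those 9, the raised floor and the averaging of probe sets only repeat the reported fit of GAUT15.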

How the data were processed

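Transcripts were measured with Affymetrix arrays in trichomes of gtl1-1 mutant and wild-type plants, 3 arrays each. The authors deposited 1 table of log2 values. The submitters' processing notes name GCRMA, a method that subtracts background modelled from probe sequence, equalises the arrays by quantiles and combines the probes of a set. Its version is not given, and the log2 scale follows from the values. The 64 control probe sets were left out, and the values were not normalised again. Groups and replicate numbers came from the labels.

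Probe sets were named by the platform annotation, with loci and further names from a table of assembly TAIR10.1 used for names and gene order only. Among 22746 probe sets, 13513 name 1 gene, 503 several and 8730 are unnamed here. For each gene the probe set with the highest mean was used. All tested probe sets were fitted by genotype with limma 3.58.1 in R 4.3.3 (lmFit and eBayes, two-sided, Benjamini-Hochberg over all 13682). The fit was tested on simulated data with independent noise, which checks the code and not the calls reported here. Changes are mutant minus wild type.

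The genes, lists and groupings were chosen with earlier results of these data known, so no p was adjusted over the list and no test was made over it. Genes described were those called, TBR, the 6 with the smallest p and 3 brightest per family, those next to the filter, and up to 3 genes per pathway list; the remaining tested genes were added afterwards. The grouping by substrate rests on known roles.

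Deviations from the genotype means correlated at 0.127, 0.275 and 0.118 between arrays numbered 1, 2 and 3. Between arrays of unequal number the correlations ran from -0.212 to 0.0873. The deviations within a genotype cancel out, so these correlations are tied to each other and cannot by themselves show pairs. The values for equal numbers all exceeded 0.1, so arrays of equal number were treated as pairs in an alternative fit, the replicate block. That choice rests on the data and not on the labels. The SE, intervals, p and calls given as reported come from the fit by genotype alone. With the replicate block, 68 probe sets were called, against 126 without it. Alternatives were the filter, normalisation, variance estimate, array weights, replicate block, a raised floor, leaving out each array, and averaging the probe sets of a gene.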

Additional observations from a re-analysis of the deposited data

How the results depend on the processing

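The number of called members was 1 as reported. It was 0 with no filter, 2 with array weights (GAUT15 and TBL25, limma adjusted p = 0.0138 and 0.0439), and 0 to 1 with an array left out. It stayed at 1 under the other alternatives, the replicate block included, where GAUT15 had a limma adjusted p of 0.047. The raised floor and the averaging of probe sets only repeated the reported fit of GAUT15 (limma adjusted p = 0.0331), so they add no support. The block changed no other call among the members. Over all probe sets the count was 126 as reported, 8 with no filter, 68 with the replicate block and 31 to 81 with an array left out. No filter adds dim probe sets, which have little spread, to the fit and to the adjustment. The number of members at an unadjusted p under 0.05 was 6 as reported and 4 to 7 with an array left out, and for the pathway lists it was 3 as reported and 1 to 3 with an array left out. The median change of the tested members was 0.09, and -0.00135 to 0.13 with an array left out. Small changes turned sign: TBL36 to 0.00163 with repeated quantile normalisation and 0.0263 with a common median, and with an array left out TBL36 ran from -0.0789 to 0.0769 (above 0 without wild type replicate 2), TBL37 from -0.13 to 0.685 (below 0 without gtl1-1 mutant replicate 2) and TBL39 from -0.285 to 0.049 (above 0 without wild type replicate 1 and, at 0.00511, gtl1-1 mutant replicate 1). The cause was not tested. The signs of GAUT15, TBL25, TBL41, TBL23, TBL32 and TBR were the same under every alternative run. In these 6 genes the genotypes do not overlap, so leaving out 1 array could not turn the sign. Several other settings refitted the same values and left the change as it was, so the unchanged signs add no support. With 3 arrays per genotype, and signal at the floor for 6 of the untested genes, smaller differences could not be resolved.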
